A study of Arabidopsis thaliana with 8 samples.

Results

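The 36 genes described here are nuclear genes for subunits of the photosystems, the electron carriers between and beyond them, the chloroplast ATP synthase and the cyclic electron flow proteins of Arabidopsis thaliana. They were taken from the deposited table by a list of locus identifiers and not by a threshold on their values, 36 of 34354 rows. The list was chosen with earlier results of these data known, and light-harvesting antenna genes are not in it. The list holds 12 genes of photosystem I, 6 of the oxygen-evolving side of photosystem II, 5 other photosystem II genes, 3 of the ATP synthase, 3 for the Rieske protein and plastocyanin, 4 for ferredoxin and its reductase and 3 for PGR5 and PGRL1. RNA sequencing compared rosette leaves of the pif4-2 pif5-3 double mutant, which carries mutant alleles of both PIF4 and PIF5, with those of the Col-0 wild type. All plants were grown for 3 weeks on soil at 22 °C. In the 2 heat groups they were then kept at 42 °C for 5 h and allowed to recover for 3 days, and in the 2 mock groups they were mock-treated. The leaves taken were rosette leaves 3 and 4, and whether mock and heated leaves had the same age at harvest was not checked. The groups mutant heat, mutant mock, wild-type heat and wild-type mock held 2 libraries each, which the series' design text calls biological replicates. Because every mutant plant carries both alleles, the parts of PIF4 and PIF5 cannot be told apart.

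Photosystem II takes electrons from water at its oxygen-evolving complex and passes them through plastoquinone, the cytochrome b6f complex and plastocyanin to photosystem I, which reduces ferredoxin. Ferredoxin-NADP reductase then forms NADPH, the ATP synthase uses the proton gradient built up on the way, and PGR5 with PGRL1 returns electrons from ferredoxin to the chain. The reaction centre proteins are encoded in the plastid, whereas the genes described here encode imported subunits that surround them, and transcripts of such genes are known to decline as leaves senesce. PIF4 and PIF5 are basic helix-loop-helix transcription factors that bind the G-box and are known to promote senescence of leaves.

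Transcript levels are in FPKM, which scale fragments to transcript length and to the size of the library, from libraries of 16852240 to 29535916 reads, with 16016 to 16348 genes at 1 FPKM or more. A change is the difference of group means of log2(FPKM + 1), printed with its SE, and a gene was called changed at a Benjamini-Hochberg adjusted p below 0.05 from limma over 16831 genes. PIF4 was at 25.6 and 23.8 FPKM in mutant heat, 33.5 and 33.6 in mutant mock, 97.2 and 101 in wild-type heat and 131 and 131 in wild-type mock libraries. PIF5 was at 4.74 and 3.98, 5.603 and 4.703, 54.3 and 54.9 and 63.2 and 66.4 FPKM in the same groups. All 36 members passed the filter on low values, and each rested on 862 to 179255 reads in a library. Their levels ranged from 38.9 to 46.3 FPKM for PGRL1B to 6207 to 8704 FPKM for PSBR, a small subunit on the oxygen-evolving side and among the most abundant transcripts of the leaf. Summed, the members took 9.89 and 9.85% of all FPKM in mutant heat, 9.23 and 9.12% in mutant mock, 8.46 and 8.54% in wild-type heat and 10.4 and 9.93% in wild-type mock libraries. In whole leaves, fewer photosynthetic cells and less RNA per cell cannot be told apart. FPKM are also relative to all other transcripts of a library. The members lie on chromosomes 1 (15 genes), 2 (4), 3 (3), 4 (11) and 5 (3). In the TAIR10.1 annotation 11 of them overlap another gene, 9 of them one on the opposite strand, and apart from FD1 and PSAE1 the overlapping genes reached at most 3.87% of the FPKM of the member.

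**Figure D1:**
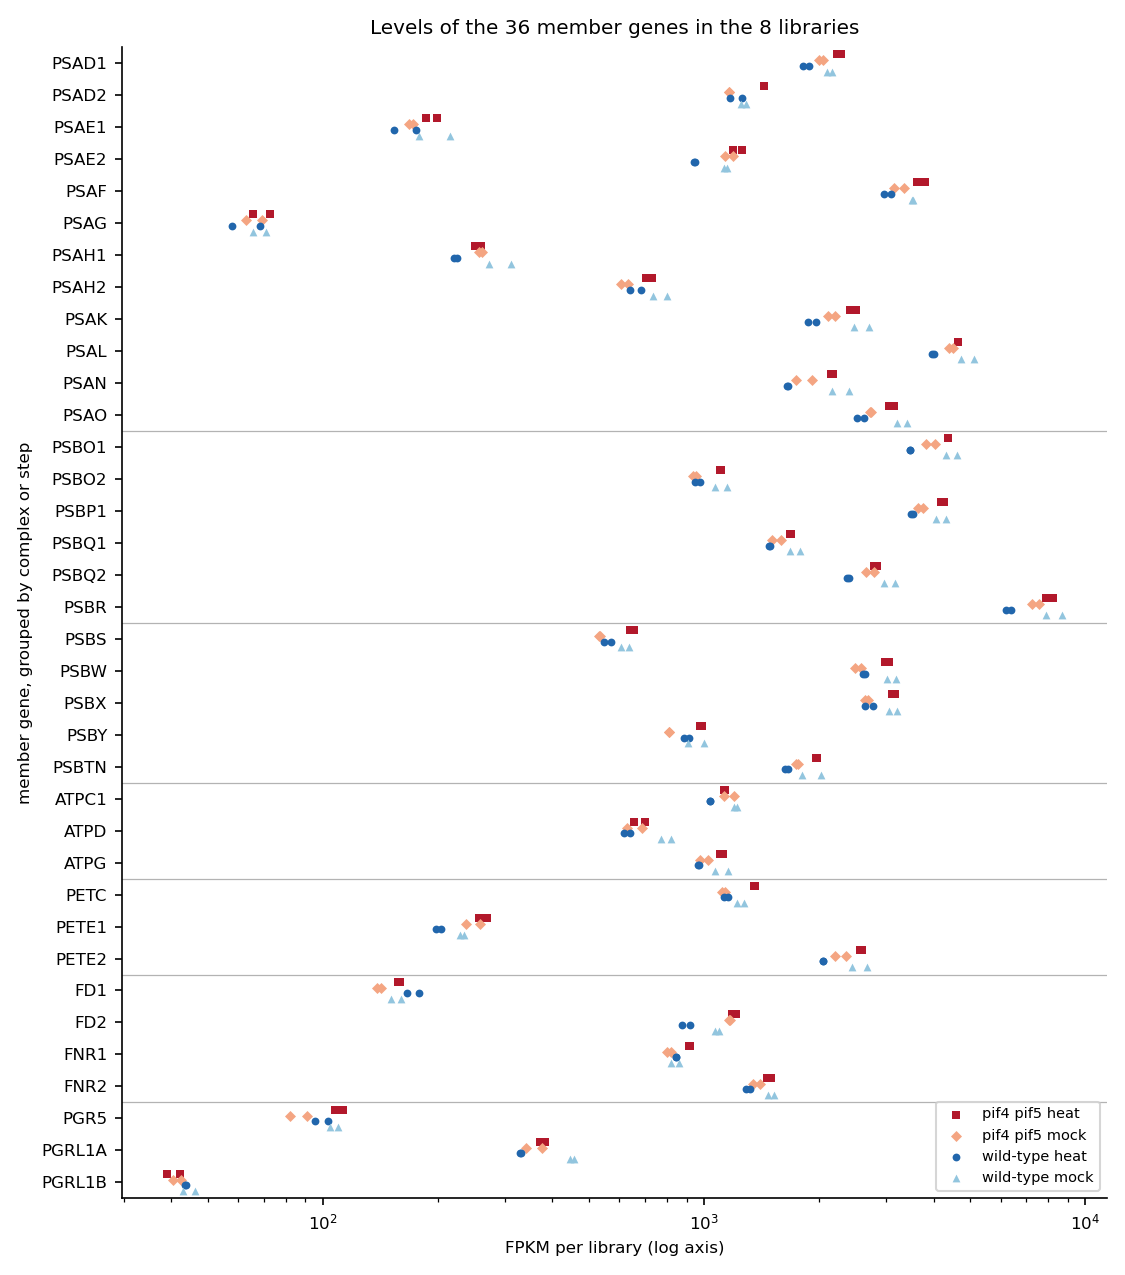
Level of each member in each of the 8 libraries in FPKM on a log axis, with the members grouped by complex from photosystem I at the top to cyclic flow at the bottom and 1 point per library. Levels span from 38.9 FPKM for PGRL1B to 8704 FPKM for PSBR, and in most rows the wild-type heat points lie to the left of the mutant heat points.

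After heat most of these transcripts were lower in the wild type. In wild-type heat libraries 29 of the 36 members fell against wild-type mock (16.9% of all genes were called lower) and 1, FD1, rose (21.5% of all genes were called higher). The median member changed by -0.22 on the log2 scale, against 0.02 over all genes. The lowest log2 changes were those of PSAN, a lumenal photosystem I subunit, at -0.46 ± 0.06 (adjusted p = 3.7e-05), PGRL1A, a cyclic flow gene, at -0.45 ± 0.05 (adjusted p = 1.1e-05), and PSAK, a photosystem I subunit beside the antenna, at -0.43 ± 0.05 (adjusted p = 2.8e-05). As a share of the mock level PSAN fell by 27.3%, PGRL1A fell by 26.7% and PSAK fell by 25.7%. Both heat libraries lay below both mock libraries for 30 members (31.5% of all genes). Members that did not pass were PSAD2, PSAG, PSBY, FNR1, PGR5 and PGRL1B, with log2 changes of -0.12 to 0.0069. The number that fell was 24 to 30 when any 1 library was left out, and 19 of the 30 calls held in all 19 other settings.

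In the mutant the same treatment went with higher levels. In mutant heat libraries 21 members rose against mutant mock (6.28% of all genes) and 0 fell (13.9% of all genes), with a median log2 change of 0.17 against -0.06 over all genes. At an unadjusted p below 0.05 the limma counts were 25 higher and 0 lower, and limma-voom on recovered reads called 24 higher and 0 lower. Over all 16831 genes 5842 had an unadjusted p below 0.05 in either direction, and limma-voom called 1071 higher and 2920 lower. PGR5, a protein of cyclic electron flow, had the highest log2 change at 0.35 ± 0.06 (adjusted p = 0.002), followed by PSAD2, the second gene for the ferredoxin-docking subunit of photosystem I, at 0.30 ± 0.04 (adjusted p = 0.00078), and PSBS, the sensor of energy-dependent quenching, at 0.28 ± 0.04 (adjusted p = 0.00091). Both heat libraries lay above both mock libraries for 29 members (19.8% of all genes). The number of members that rose was 9 when either mutant heat library was left out and 9 without mutant mock replicate 2. With quantile scaling 10 rose and 2 (PSBR, at -0.19, and ATPC1) fell, where 1243 of all genes rose and 1348 fell. Of the 21 calls 7 held in all 19 other settings.

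**Figure D2:**
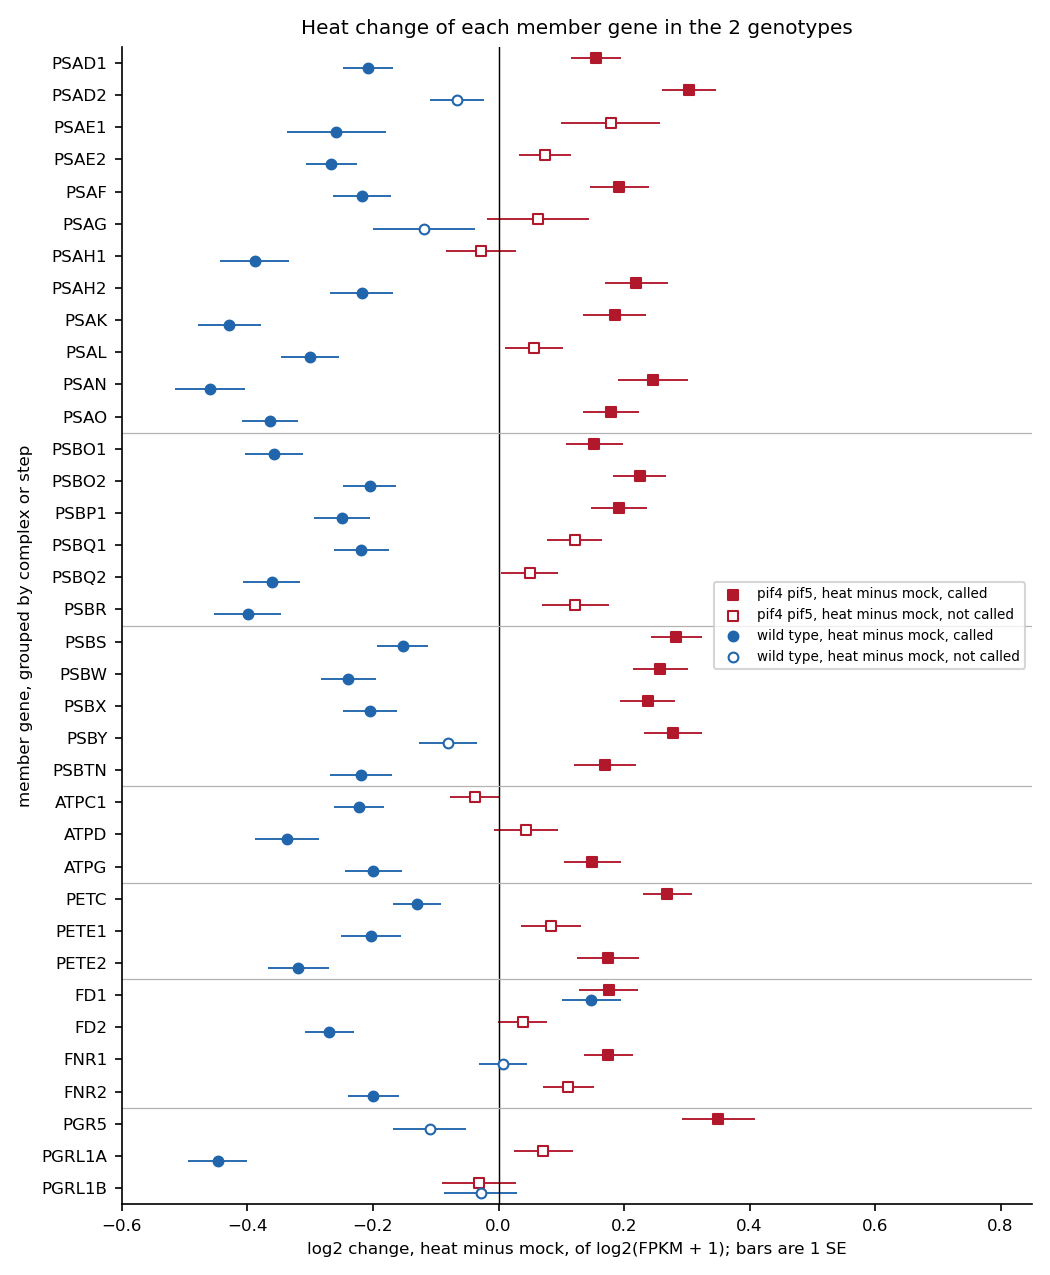
Heat change of each member, heat minus mock, in the mutant (red squares) and in the wild type (blue circles) in log2(FPKM + 1), with bars of 1 SE and filled symbols for an adjusted p below 0.05. The mutant symbols lie right of the wild-type symbols for 35 of the 36 members, with medians of 0.17 and -0.22.

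The difference between the 2 heat changes was tested directly as an interaction, mutant minus wild type. It was positive and called for 33 of the 36 members (10.3% of all genes) and negative and called for 0 (21.6% of all genes). The median was 0.39 on the log2 scale against -0.10 over all genes. Members with a negative value at an unadjusted p below 0.05 also numbered 0, and limma-voom called 0 negative. Over all 16831 genes 7116 had an unadjusted p below 0.05 in either direction, and limma-voom called 4028 negative. PSAN had the highest value at 0.71 ± 0.08 (adjusted p = 4.3e-05), and by p it was followed by PSAK at 0.61 ± 0.07 (adjusted p = 5.7e-05), PSAO at 0.54 ± 0.06 (adjusted p = 5.9e-05), PSBW at 0.50 ± 0.06 (adjusted p = 9.7e-05) and PSBO1 at 0.51 ± 0.06 (adjusted p = 0.00011). FD1, PSAG and PGRL1B were not called. The heat changes of the 2 genotypes share no library, and 16 members were both lower after heat in the wild type and higher after heat in the mutant (1.26% of all genes). They are PSAD1, PSAF, PSAH2, PSAK, PSAN, PSAO, PSBO1, PSBO2, PSBP1, PSBS, PSBW, PSBX, PSBTN, ATPG, PETC and PETE2. Each of the 33 calls rests on a difference of differences among 8 libraries, and their number was 30 to 33 when any 1 library was left out. Of the 33 calls 22 held in all 18 other settings. With quantile scaling, which gives the same value to the same rank in every library, 24 were called (2470 of 16831 genes were called positive). PSBP1, PSBR and PSAL then turned to -0.0311, -0.0271 and -0.0375.

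Between the genotypes the members differed in opposite directions in the 2 treatments. These comparisons rest on the same group means as the heat changes and the interaction, and are not independent of them. In mock leaves 23 members were lower in the mutant (7.69% of all genes) and 0 were higher (13.0% of all genes), with a median log2 change of -0.16 against 0.06 over all genes. At an unadjusted p below 0.05 limma gave 1 higher, FD2, and limma-voom on recovered reads called the same gene. Over all 16831 genes 5795 had such a p in either direction, and limma-voom called 2987 higher. After heat 29 were higher in the mutant (11.0% of all genes) and 0 were lower (17.6% of all genes), with a median of 0.22 against -0.03. At an unadjusted p below 0.05 1 was lower after heat, FD1, with 0 called by limma-voom. Over all 16831 genes 6645 had such a p in either direction after heat, and limma-voom called 3128 lower. In mock leaves PGRL1A (-0.33 ± 0.05, adjusted p = 0.00042), PSAN (-0.32 ± 0.06, adjusted p = 0.0017) and PSAH2 (-0.31 ± 0.05, adjusted p = 0.001) were furthest below the wild type. After heat FD2, the main leaf ferredoxin, was furthest above it at 0.42 ± 0.04 (adjusted p = 6.8e-06), followed by PSAN at 0.38 ± 0.06 (adjusted p = 0.00025) and PETE1, the minor plastocyanin gene, at 0.38 ± 0.05 (adjusted p = 8.1e-05). Both mutant mock libraries lay below both wild-type mock libraries for 31 members (20.5% of all genes), and both mutant heat libraries above both wild-type heat libraries for 33 (26.5% of all genes). The reverse held for FD2 and PETE1 in mock leaves (2 members, 41.4% of all genes) and for FD1 and PGRL1B after heat (2 members, 38.8% of all genes). The number lower in mock leaves was 12 without mutant mock replicate 2, 12 without wild-type mock replicate 1 and 11 with only the mock groups in the fit, whereas after heat 20 to 31 were higher when any 1 library was left out. Of the calls 9 of 23 in mock leaves and 14 of 29 after heat held in all 19 other settings.

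Photosystem I genes fell in the wild type in 10 of 12 cases (16.9% of all genes), with a median log2 change of -0.26. They rose in the mutant in 7 of 12 (6.28% of all genes), with a median of 0.18. The 2 heat changes differed in 11, and 10.3% of all genes had a called positive interaction. PSAN (AT5G64040, chr5:25628521-25629708 on the minus strand) encodes a lumenal subunit on the plastocyanin side. It was at 2173 and 2155 FPKM in mutant heat libraries, 1916 and 1739 in mutant mock, 1653 and 1662 in wild-type heat and 2400.2 and 2165 in wild-type mock libraries. The wild-type heat libraries were the lowest of the 8, and mutant heat libraries overlapped the wild-type mock libraries. PSAK (AT1G30380), which lies beside the light-harvesting antenna, was at 2502 and 2419.7 FPKM in mutant heat libraries, 2213 and 2115 in mutant mock, 1878 and 1962 in wild-type heat and 2705 and 2469 in wild-type mock libraries. PSAO (AT1G08380), a small subunit at the antenna-docking side, was at 3143 and 3057 FPKM in mutant heat libraries, 2725 and 2749 in mutant mock, 2513 and 2622 in wild-type heat and 3408 and 3202 in wild-type mock libraries. In both genes the wild-type heat libraries were again the lowest, and for PSAO the wild-type mock libraries were the highest. PSAF (AT1G31330), the plastocyanin-docking subunit, and PSAL (AT4G12800), which borders the PSAH and PSAO proteins, lay at 2967 to 3798 FPKM and 3975 to 5107 FPKM over the 8 libraries. PSAF changed by 0.19 ± 0.05 in the mutant and -0.22 ± 0.05 in the wild type, and PSAL by 0.0563 ± 0.05 (not called) in the mutant and -0.30 ± 0.05 in the wild type. PSAG (AT1G55670), another antenna-side subunit, was the only photosystem I gene called in none of the 5 comparisons, and its libraries overlapped between all groups at 65.6 to 72.8 FPKM in mutant heat, 62.99 to 69.4 in mutant mock, 57.6 to 68.3 in wild-type heat and 65.5 to 71.1 in wild-type mock.

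The photosystem I subunits PSAD and PSAE, on the stromal side, and PSAH, in the membrane, are each encoded by a pair of genes. PSAD1 (AT4G02770), for the ferredoxin-docking subunit, was at 2231 and 2282 FPKM in mutant heat libraries, 2005 and 2047 in mutant mock, 1818 and 1882 in wild-type heat and 2165 and 2107 in wild-type mock libraries. Its partner PSAD2 (AT1G03130) was at 1440.5 and 1437 FPKM in mutant heat libraries, 1166 and 1165 in mutant mock, 1170.1 and 1258 in wild-type heat and 1291 and 1249.98 in wild-type mock libraries. Both genes were highest in mutant heat libraries, but only PSAD1 was called lower after heat in the wild type (-0.21 ± 0.04, adjusted p = 0.0013), while PSAD2 was at -0.0663 ± 0.04 (adjusted p = 0.25). With quantile scaling the mutant heat change of PSAD1, 0.16 ± 0.04, turned to -0.0482. PSAE1 (AT4G28750), for a stromal subunit next to PSAD, was at 199 and 187 FPKM in mutant heat libraries, 172 and 168 in mutant mock, 154 and 175 in wild-type heat and 216 and 179 in wild-type mock libraries. PSAE2 (AT2G20260) was at 1258 and 1194 FPKM in mutant heat libraries, 1192 and 1137 in mutant mock, 946 and 944 in wild-type heat and 1146 and 1127 in wild-type mock libraries. PSAE1 varied more within groups, with an SE of 0.08 for a heat change against 0.04 for PSAE2, and it overlaps AT4G28740, which reached up to 27.1% of its FPKM. Its interaction of 0.44 ± 0.11 (adjusted p = 0.011) was lost without wild-type heat replicate 1. PSAH1 (AT3G16140), for the subunit at which mobile antenna docks, was at 259 and 249.96 FPKM in mutant heat libraries, 258 and 261 in mutant mock, 225 and 220.5 in wild-type heat and 312 and 272 in wild-type mock libraries. PSAH2 (AT1G52230) was at 731 and 706 FPKM in mutant heat libraries, 630.2 and 605 in mutant mock, 682 and 638 in wild-type heat and 801 and 735 in wild-type mock libraries. Wild-type mock libraries were the highest of the 8 in both. PSAH2 rose after heat in the mutant (0.22 ± 0.05), whereas PSAH1 was at -0.0273 ± 0.06 and was not called.

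On the oxygen-evolving side of photosystem II all 6 genes fell in the wild type (16.9% of all genes), with a median log2 change of -0.30. In the mutant 3 rose (6.28% of all genes), with a median of 0.14. All 6 differed in their heat change, and 10.3% of all genes had a called positive interaction. PSBO stabilises the manganese cluster. PSBO1 (AT5G66570, chr5:26568572-26570461) was at 4362 and 4362 FPKM in mutant heat libraries, 4025 and 3826 in mutant mock, 3479 and 3475 in wild-type heat and 4599 and 4316 in wild-type mock libraries. PSBO2 (AT3G50820) was at 1107 and 1099.9 FPKM in mutant heat libraries, 953 and 936 in mutant mock, 975 and 949.5 in wild-type heat and 1151 and 1070.1 in wild-type mock libraries. PSBO1 was lowest in wild-type heat libraries and changed by 0.15 ± 0.05 (adjusted p = 0.035) in the mutant, a value that turned to -0.0384 with quantile scaling, and by -0.36 ± 0.05 (adjusted p = 5.8e-05) in the wild type. PSBQ1 (AT4G21280), for the smallest of the 3 extrinsic proteins, was at 1685 and 1693 FPKM in mutant heat libraries, 1597 and 1509 in mutant mock, 1483 and 1490.5 in wild-type heat and 1784 and 1677 in wild-type mock libraries. PSBQ2 (AT4G05180) was at 2836 and 2800.1 FPKM in mutant heat libraries, 2795 and 2653 in mutant mock, 2397 and 2368 in wild-type heat and 3167 and 2959 in wild-type mock libraries. Neither rose in the mutant past the threshold (0.12 ± 0.04 for PSBQ1 and 0.0495 ± 0.05 for PSBQ2), and both fell in the wild type (-0.22 ± 0.04 and -0.36 ± 0.05). PSBP1 (AT1G06680), the remaining extrinsic protein, changed by 0.19 ± 0.04 in the mutant, which turned to -0.0558 with quantile scaling, and by -0.25 ± 0.04 in the wild type. PSBR (AT1G79040) lay at 7907 to 8218 FPKM in mutant heat, 7262 to 7554 in mutant mock, 6207 to 6369.8 in wild-type heat and 7903 to 8704 in wild-type mock libraries. Its fall of -0.40 ± 0.05 in the wild type was the largest of the 6, and it was not called in the mutant (0.12 ± 0.05, adjusted p = 0.13).

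The other 5 photosystem II genes all rose in the mutant (6.28% of all genes), with a median log2 change of 0.26. In the wild type 4 of the 5 fell (16.9% of all genes), with a median of -0.21, PSBY being the exception (-0.0804 ± 0.05, adjusted p = 0.19). PSBS (AT1G44575) was at 656 and 638 FPKM in mutant heat libraries, 529.8 and 534 in mutant mock, 569 and 545 in wild-type heat and 635 and 604 in wild-type mock libraries. PSBW (AT2G30570), a small membrane subunit that stabilises antenna supercomplexes, was at 3062 and 2989.6 FPKM in mutant heat libraries, 2578 and 2483 in mutant mock, 2616 and 2644 in wild-type heat and 3197 and 3014 in wild-type mock libraries. In both genes the mutant mock libraries were the lowest of the 8, unlike PSAN and PSAK, in which the wild-type heat libraries were. The small membrane subunits PSBX (AT2G06520) and PSBY (AT1G67740) changed by 0.24 ± 0.04 and 0.28 ± 0.05 in the mutant. PSBTN (AT3G21055), the nuclear-encoded small lumenal T subunit, changed by 0.17 ± 0.05 (adjusted p = 0.032) in the mutant, a call lost in 9 of 19 other settings (0.0112 with quantile scaling), and by -0.22 ± 0.05 (adjusted p = 0.0041) in the wild type. Summed FPKM of the 12 photosystem I genes divided by that of the 11 photosystem II genes was 0.6904 and 0.697 in mutant heat, 0.689 and 0.705 in mutant mock, 0.684 and 0.693 in wild-type heat and 0.685 and 0.696 in wild-type mock libraries, so the 2 photosystems kept nearly the same proportion of transcripts in all 8 libraries.

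Of the 3 ATP synthase genes all fell in the wild type (16.9% of all genes) and 1 rose in the mutant (6.28% of all genes). ATPC1 (AT4G04640), the redox-regulated gamma subunit, lay at 1129 to 1132 FPKM in mutant heat, 1126 to 1196 in mutant mock, 1034 to 1039.6 in wild-type heat and 1199 to 1221 in wild-type mock libraries. It had the second lowest called interaction of the members at 0.19 ± 0.06 (adjusted p = 0.025), a call lost in 9 of 18 other settings. ATPD (AT4G09650), the delta subunit, changed by 0.0439 ± 0.05 (not called) in the mutant and -0.34 ± 0.05 in the wild type. ATPG (AT4G32260), a subunit of the stator stalk, changed by 0.15 ± 0.05 in the mutant, which turned to -0.0125 with quantile scaling, and by -0.20 ± 0.05 in the wild type.

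Between the photosystems, PETC (AT4G03280) encodes the Rieske iron-sulfur protein of the cytochrome b6f complex. It was at 1358 and 1352 FPKM in mutant heat libraries, 1138 and 1112 in mutant mock, 1130.1 and 1153 in wild-type heat and 1276 and 1222 in wild-type mock libraries. The mutant heat libraries were the highest, and the log2 changes were 0.27 ± 0.04 (adjusted p = 0.00091) in the mutant and -0.13 ± 0.04 (adjusted p = 0.019) in the wild type, the wild-type call being lost in 5 of 19 other settings, among them without wild-type heat replicate 1 or 2 or wild-type mock replicate 1. Plastocyanin, the lumenal copper carrier, is encoded by PETE2 (AT1G20340), the more abundant transcript, and PETE1. PETE2 was at 2591 and 2560.1 FPKM in mutant heat libraries, 2358 and 2209 in mutant mock, 2049 and 2053 in wild-type heat and 2673 and 2447 in wild-type mock libraries. PETE1 (AT1G76100) was at 257 and 269 FPKM in mutant heat libraries, 237 and 259 in mutant mock, 198 and 205 in wild-type heat and 235 and 229 in wild-type mock libraries. In mock leaves PETE2 was called lower in the mutant (-0.16 ± 0.05, adjusted p = 0.035), a call lost in 10 of 19 other settings, and PETE1 was not called (0.10 ± 0.05, adjusted p = 0.18) but had both mutant libraries above both wild-type libraries. After heat both were higher in the mutant, at 0.33 ± 0.05 for PETE2 and 0.38 ± 0.05 for PETE1.

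On the acceptor side of photosystem I, FD1 (AT1G10960) and FD2 (AT1G60950) encode leaf ferredoxins. FD1 was at 159.8 and 157 FPKM in mutant heat libraries, 138 and 142 in mutant mock, 166 and 178 in wild-type heat and 160.2 and 151 in wild-type mock libraries. It was highest in wild-type heat libraries and the only member called higher after heat in the wild type (0.15 ± 0.05, adjusted p = 0.026). That call was lost in 5 of 19 other settings, among them median-of-ratios scaling and the fits without wild-type heat replicate 2 or wild-type mock replicate 2. FD1 also rose in the mutant (0.18 ± 0.05, adjusted p = 0.022), a call lost in 7 of 19 other settings, and its interaction was 0.0284 ± 0.07 (adjusted p = 0.78). FD1 overlaps its neighbour AT1G10950 on the same strand, which reached up to 36.5% of the FPKM of FD1 and lay at 43.5 and 44.7 FPKM in mutant heat, 50.6 and 51.6 in mutant mock, 44.5 and 43.2 in wild-type heat and 47.4 and 47.5 in wild-type mock libraries. FD2 was at 1213 and 1186 FPKM in mutant heat libraries, 1166 and 1169.7 in mutant mock, 875 and 917 in wild-type heat and 1094 and 1066 in wild-type mock libraries. It was lowest in wild-type heat libraries, at -0.27 ± 0.04 (adjusted p = 0.00016), and did not rise in the mutant past the threshold (0.0388 ± 0.04, adjusted p = 0.52). In mock leaves FD2 was at 0.11 ± 0.04 (adjusted p = 0.062) in the mutant against the wild type, with both mutant libraries above both wild-type libraries, and was called higher in 4 of 19 other settings, among them quantile scaling (0.23) and the fit with organelle loci left out and equal FPKM sums (0.14). FD1 was called lower in the mutant in mock leaves (-0.15 ± 0.05, adjusted p = 0.045), a call lost in 10 of 19 other settings. Ferredoxin-NADP reductase is encoded in leaves by FNR1 (AT5G66190) and FNR2 (AT1G20020). FNR1 was at 917 and 914 FPKM in mutant heat libraries, 819.6 and 802 in mutant mock, 847 and 842 in wild-type heat and 862 and 819 in wild-type mock libraries. FNR2 was at 1459 and 1503 FPKM in mutant heat libraries, 1398 and 1344 in mutant mock, 1286 and 1317 in wild-type heat and 1522 and 1468 in wild-type mock libraries. FNR1 rose in the mutant and not in the wild type (0.17 ± 0.04 and 0.0069 ± 0.04), and the test of that difference gave 0.17 ± 0.05 (adjusted p = 0.035), a call lost in 10 of 18 other settings. FNR2 fell in the wild type (-0.20 ± 0.04, adjusted p = 0.002) and did not pass in the mutant (0.11 ± 0.04, adjusted p = 0.075).

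Of the 3 cyclic flow genes 1 rose in the mutant (6.28% of all genes) and 1 fell in the wild type (16.9% of all genes). PGR5 (AT2G05620) was at 113 and 107 FPKM in mutant heat libraries, 90.8 and 81.8 in mutant mock, 95.6 and 103 in wild-type heat and 109.7 and 105 in wild-type mock libraries. The mutant mock libraries were the lowest, -0.31 ± 0.06 (adjusted p = 0.0028) against wild-type mock. PGRL1A (AT4G22890), for the membrane partner of PGR5, was at 382 and 372 FPKM in mutant heat libraries, 377 and 342 in mutant mock, 329.7 and 331 in wild-type heat and 457 and 446 in wild-type mock libraries. Its wild-type mock libraries were the highest and its wild-type heat libraries the lowest of the 8. PGRL1B (AT4G11960), the second and far less abundant gene, was at 42.2 and 38.9 FPKM in mutant heat libraries, 42.5 and 40.5 in mutant mock, 43.5 and 43.8 in wild-type heat and 46.3 and 42.9 in wild-type mock libraries. It was called in none of the 5 comparisons, with a heat change of -0.0316 ± 0.06 in the mutant and -0.0285 ± 0.06 in the wild type, and its interaction of -0.003 was the only one of the 36 below 0, turning to 0.10 with median-of-ratios scaling and to 0.0721 with quantile scaling.

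Because 9 proteins of the chain are encoded by 2 members each, the share of the first gene in the FPKM sum of its pair was followed. This ratio within a library is not altered by scaling with a single factor per library. Quantile scaling can alter it and was not applied to the shares. The shares moved by a few percentage points. FD1 took 11.6 and 11.7% in mutant heat, 10.6 and 10.8% in mutant mock, 15.97 and 16.3% in wild-type heat and 12.8 and 12.4% in wild-type mock libraries. The wild-type heat libraries stood highest and apart from the other 6. PSAH1 took 26.2 and 26.1% in mutant heat, 29.01 and 30.2% in mutant mock, 24.8 and 25.7% in wild-type heat and 28.1 and 27.04% in wild-type mock libraries. For PSAD1 the shares were 60.8 and 61.4% in mutant heat, 63.2 and 63.7% in mutant mock, 60.8 and 59.9% in wild-type heat and 62.6 and 62.8% in wild-type mock libraries. In both pairs the share of the first gene was lower after heat in both genotypes, with no overlap of libraries. PSBQ1 took 37.3 and 37.7% in mutant heat, 36.4 and 36.3% in mutant mock, 38.2 and 38.6% in wild-type heat and 36.03 and 36.2% in wild-type mock libraries. FNR1 took 38.6 and 37.8% in mutant heat, 36.95 and 37.4% in mutant mock, 39.7 and 38.996% in wild-type heat and 36.2 and 35.8% in wild-type mock libraries. Both shares were higher after heat in both genotypes with no overlap. PGRL1A took 90.1 and 90.5% in mutant heat, 89.9 and 89.4% in mutant mock, 88.3 and 88.3% in wild-type heat and 90.8 and 91.2% in wild-type mock libraries. That share was higher after heat in the mutant and lower after heat in the wild type. PSBO1 held between 78.1 and 80.9% of its pair, PETE1 between 8.08 and 10.5% and PSAE1 between 12.6 and 15.9% over the 8 libraries. After heat the PSBO1 share was lower without overlap in the mutant (-0.80 points) and the wild type (-1.74 points). The FD1 share was higher without overlap in both (0.95 and 3.55 points). Heat and mock shares overlapped for PETE1 in the mutant and for PSAE1 in the wild type. Heat and mock libraries did not overlap for 8 of the 9 shares in the mutant and for 8 of 9 in the wild type. Such separation was common for the FPKM of single genes. In the mutant 19.8% of all genes were higher and 41.9% lower after heat without overlap. The wild type had 37.4% higher and 31.5% lower. With 2 libraries against 2 an exact permutation test cannot go below p = 0.333, so these shares are given as a description. The pairs are distinct enough in sequence to be counted apart if reads were long enough: their coding sequences were 72.9 to 87.0% identical, the longest exact run shared by their transcripts was 17 to 38 bases, and 0 words of 50 bases were shared in any pair. Read length was not given in the sources used here.

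**Figure D3:**
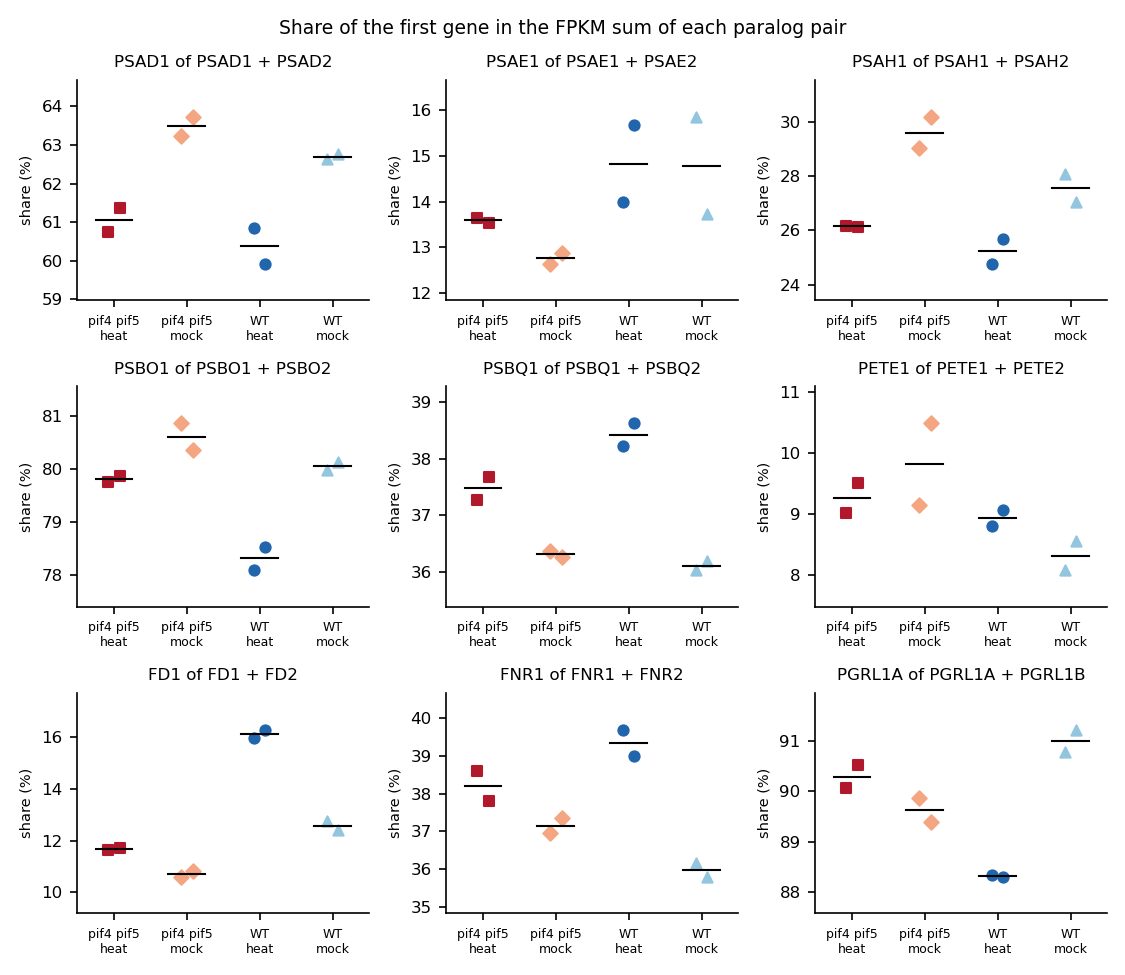
Share of the first gene in the summed FPKM of each of 9 paralog pairs in percent, with 1 point per library and a line at the mean of each group, and with axes that do not start at 0. FD1 stands at 16.0 to 16.3% of its pair in wild-type heat libraries and at 10.6 to 12.8% in the other 6.

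PIF4 and PIF5 bind the G-box, so the 250 bases upstream of the annotated start of each member were read from the RefSeq TAIR10.1 genome and searched on both strands for CACGTG (G-box), CACATG (PIF-binding E-box) and GATAAG (I-box, known from light-regulated photosynthesis genes). A G-box was present in 6 of 36 members (16.7%), against 6.49% of 27443 annotated genes in windows of the same length. The PIF-binding E-box was present in 4 (11.1%, against 11.1%) and the I-box in 10 (27.8%, against 12.3%). The members with a G-box were PSAE2, PSAH2, PSBQ1, PSBQ2, PSBTN and ATPD, and PSAH2, PSBQ1 and PSBQ2 each held 2. The promoters below are shown because both PSBQ genes hold 2 G-boxes, the PSAH pair differs in them, and PSAN, with the highest interaction, holds none of the 3 motifs. They lie at chr4:11334102-11334351 (PSBQ1, plus strand), chr4:2673244-2673493 (PSBQ2, minus), chr1:19454548-19454797 (PSAH2, plus), chr3:5469595-5469844 (PSAH1, minus) and chr5:25629709-25629958 (PSAN, minus), are written 5′ to 3′ in the direction of the gene, and carry any of the 3 motifs in capitals, on either strand.
PSBQ1: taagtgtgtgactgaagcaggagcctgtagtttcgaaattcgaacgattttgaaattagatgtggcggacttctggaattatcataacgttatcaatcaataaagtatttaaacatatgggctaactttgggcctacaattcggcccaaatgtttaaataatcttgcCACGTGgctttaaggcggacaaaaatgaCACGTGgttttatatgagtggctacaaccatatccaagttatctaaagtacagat
PSBQ2: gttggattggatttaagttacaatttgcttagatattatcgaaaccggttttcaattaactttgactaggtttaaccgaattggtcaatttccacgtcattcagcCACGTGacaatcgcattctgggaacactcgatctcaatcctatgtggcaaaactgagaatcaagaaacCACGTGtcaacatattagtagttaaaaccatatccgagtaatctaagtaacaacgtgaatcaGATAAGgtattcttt
PSAH2: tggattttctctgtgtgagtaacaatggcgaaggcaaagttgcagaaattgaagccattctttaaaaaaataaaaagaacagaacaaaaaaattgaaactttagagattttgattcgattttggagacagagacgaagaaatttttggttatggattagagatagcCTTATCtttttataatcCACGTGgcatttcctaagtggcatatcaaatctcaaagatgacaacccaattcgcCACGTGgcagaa
PSAH1: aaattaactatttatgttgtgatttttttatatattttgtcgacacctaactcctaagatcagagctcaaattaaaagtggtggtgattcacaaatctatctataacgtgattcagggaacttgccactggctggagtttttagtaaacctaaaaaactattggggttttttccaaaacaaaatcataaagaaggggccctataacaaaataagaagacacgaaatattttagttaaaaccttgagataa
PSAN: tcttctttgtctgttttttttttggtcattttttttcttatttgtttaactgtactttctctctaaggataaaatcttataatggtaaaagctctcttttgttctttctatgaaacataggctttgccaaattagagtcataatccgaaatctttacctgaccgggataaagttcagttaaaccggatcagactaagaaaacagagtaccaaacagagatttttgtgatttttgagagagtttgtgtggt
The G-boxes of PSBQ1 begin 83 and 55 bases before the annotated start, those of PSBQ2 145 and 77 bases and those of PSAH2 67 and 12 bases before it. The heat change of the 6 members with a G-box had a median of 0.10 in the mutant and -0.24 in the wild type, and that of the 30 without one had 0.18 and -0.21 in the same genotypes. The median interaction was 0.38 with a G-box and 0.40 without. PSAH2 and PSAH1 fell in the wild type by 0.22 and 0.39 on the log2 scale, and PSAN by 0.46. A match of letters is a description and shows neither binding nor its absence.

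Other genes of photosynthesis were counted for comparison. Beside these counts, 6.28% of all genes were called higher and 13.9% lower after heat in the mutant. In the wild type 21.5% were called higher and 16.9% lower. Of 19 light-harvesting genes tested, 16 rose and 0 fell after heat in the mutant (median log2 change 0.25) and 1 rose and 18 fell in the wild type (median -0.29), so the antenna moved in the same directions as the photosystem subunits. Of 16 nuclear genes of the NDH complex, which also serves cyclic flow, 7 rose in the mutant (median 0.16) and 10 fell in the wild type (median -0.21), for example PNSL1 at 0.40 ± 0.05 in the mutant and PNSL5 at -0.34 ± 0.05 in the wild type. Of 24 assembly, repair and regulation genes, 4 rose in the mutant (median 0.0576) and 15 fell in the wild type (median -0.16). Among them were CURT1A, which curves the grana margins, and HCF136, an assembly factor of photosystem II, at -0.32 ± 0.04 and -0.39 ± 0.05 in the wild type. Of 29 plastid-encoded loci tested, 1 rose and 2 fell in the mutant (median -0.12) and 12 fell in the wild type (median -0.35). Their FPKM summed to only 342 to 520, so they are a small remainder in these libraries.

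Reads of the light-harvesting and Rubisco families may be shared between near-identical copies, so single values of these genes are uncertain. The Rubisco list did not follow the photosystem genes in the wild type. Of 5 genes for Rubisco small subunits and Rubisco activase, 5 rose after heat in the mutant (6.28% of all genes), with a median log2 change of 0.43. In the wild type 3 rose (21.5% of all genes), with a median of 0.31. RBCS2B was at 0.66 ± 0.04 in the mutant and 0.51 ± 0.04 in the wild type, and RCA, the activase gene, at 0.45 ± 0.06 and 0.48 ± 0.06. The interaction was called for 1 of the 5, RBCS3B (0.25 ± 0.07), where 10.3% of all genes were called positive and 21.6% negative. With 5 genes that count is too small to set against those shares. Of 4 tested genes listed as non-photosynthetic isoforms of ferredoxin and its reductase, 3 rose in the wild type (21.5% of all genes), where FD2 and FNR2 fell. The remaining 1 fell (16.9% of all genes). RFNR1, the root-type reductase, rose to 14.3 and 12.4 FPKM in wild-type heat libraries, against 6.36 and 6.47 in wild-type mock (0.95 ± 0.10). RFNR1 was at 7.62 and 8.28 FPKM in mutant heat and 7.58 and 6.62 in mutant mock libraries (0.15 ± 0.10, not called), and the difference between the 2 heat changes was -0.81 ± 0.14. RFNR2 rose in the wild type as well (0.56 ± 0.09), as did FD3, a ferredoxin of roots (0.39 ± 0.10), whereas FDC2 fell (-0.37 ± 0.05) and FDC1 was listed at 0 in every library. These levels were 4.62 to 14.3 FPKM for RFNR1, RFNR2 and FD3, far below the leaf isoforms.

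**Figure D4:**
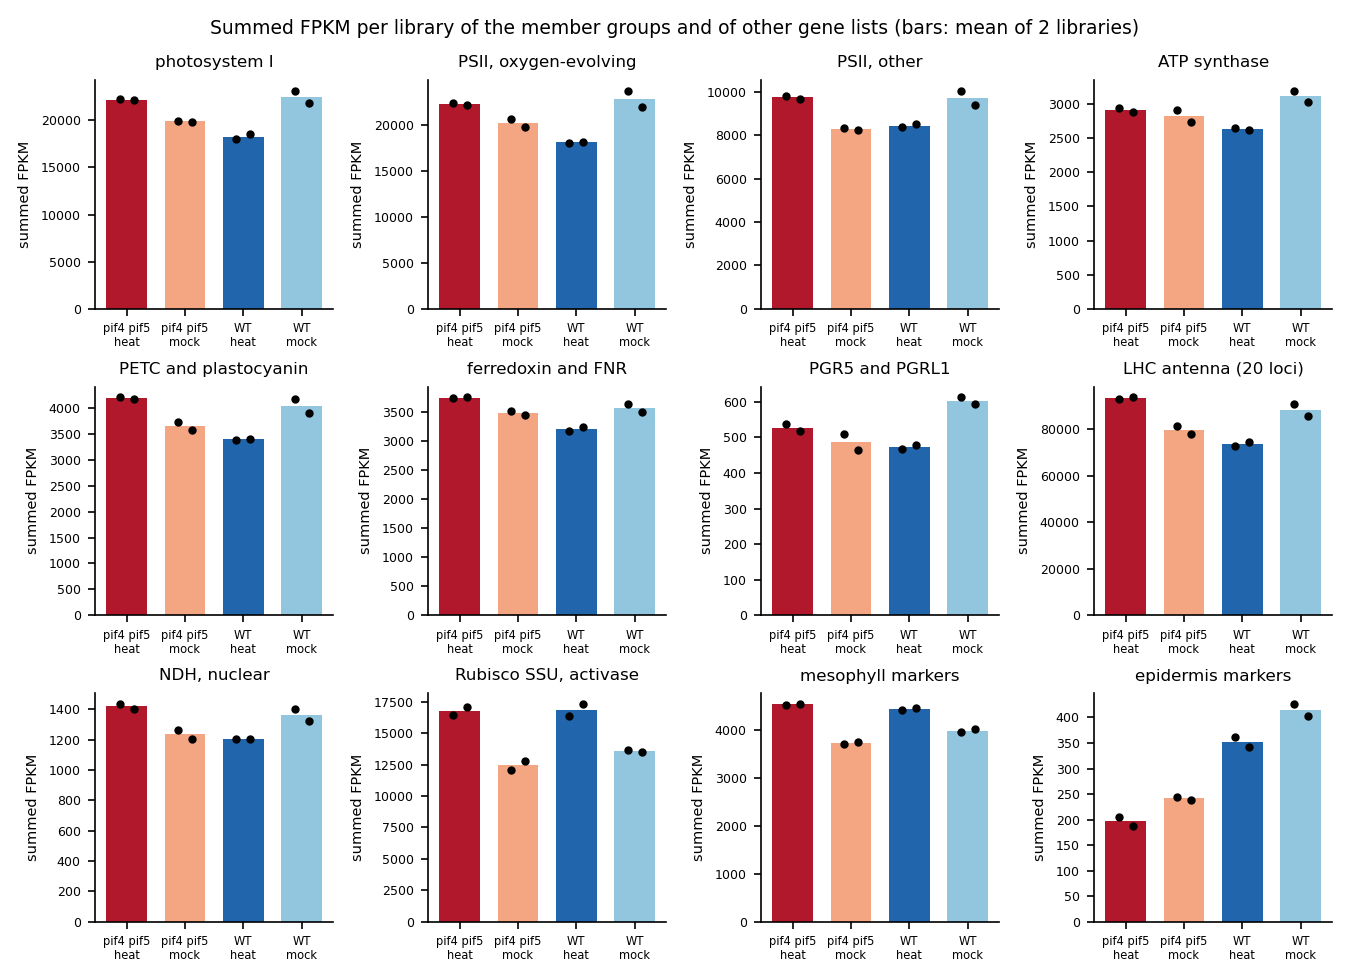
Summed FPKM of the member groups and of other gene lists in each group of libraries, with bars at the mean of 2 libraries, 1 point per library and axes from 0. The 7 member groups are lowest in wild-type heat or mutant mock libraries, whereas Rubisco genes sum to 16357 and 17328 FPKM in wild-type heat and 13653 and 13481 in wild-type mock.

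Sums of cell type markers differed between some groups, and few guard cell and vascular markers were called. Over all genes 21.5% were called higher and 16.9% lower after heat in the wild type, and 6.28% and 13.9% in the mutant. The 5 mesophyll markers, of the tissue in which these subunits are made, summed to 4516 and 4536 in mutant heat, 3694 and 3745 in mutant mock, 4419.5 and 4448 in wild-type heat and 3952 and 4004 in wild-type mock libraries. After heat 4 rose in the mutant and 3 in the wild type. Their sum was higher after heat in both genotypes, and it was lower in mutant mock than in wild-type mock libraries. The epidermis markers summed to 205 and 188 in mutant heat, 245 and 238 in mutant mock, 362 and 342 in wild-type heat and 427 and 402 in wild-type mock libraries, with PDF1 at or near 0, and 4 of 4 tested fell in the mutant and 3 of 4 in the wild type. The 5 guard cell markers summed to 789 and 823 in mutant heat, 925 and 927 in mutant mock, 465 and 425 in wild-type heat and 1109 and 1109.7 in wild-type mock libraries, and 1 rose and 1 fell in each genotype. Their log2 heat changes in the wild type ran from -1.45 to 0.28 with a median of 0.05, so the lower sum was not shared by all 5. The 4 vascular markers summed to 185 and 201 in mutant heat, 198 and 217 in mutant mock, 178 and 179.8 in wild-type heat and 201 and 202 in wild-type mock libraries, and 0 rose and 1 fell in each genotype. The 4 root markers summed to 22.8 and 21.7 in mutant heat, 32.7 and 34.3 in mutant mock, 23.4 and 23.2 in wild-type heat and 20.1 and 20.2 in wild-type mock libraries. Of these PYK10, a beta-glucosidase, was higher in mutant mock than in wild-type mock (1.06 ± 0.07 on the log2 scale), and after heat it fell in the mutant (-0.78 ± 0.07) and rose in the wild type (0.23 ± 0.07), with an interaction of -1.01 ± 0.10. SCR was called in none of the 5 comparisons, BGLU21 was listed at 0 and RHD2 was at most 0.0835 FPKM, and the 3 shoot meristem markers were at most 0.136 FPKM. Among 4 tested senescence genes 2 rose in the mutant and 4 in the wild type, with SAG13 at 15.5 and 15.3 FPKM in mutant heat, 10.1 and 9.32 in mutant mock, 158 and 160.02 in wild-type heat and 4.38 and 6.55 in wild-type mock libraries. Whether a change in cell composition or in senescence has a part in the members' changes was not tested.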

How the data were processed

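Libraries were made with a directional RNA kit, per the labels. A single FPKM table was deposited by the authors, with 8 library columns and no counts. TopHat, TopHat2, edgeR and the TAIR10 build are named, with no roles or versions, per the submitters' processing notes. How reads were counted (software, gene models, strand, read filters) is not given in the sources used here. The depths of 16852240 to 29535916 reads were estimated from the steps between FPKM values of low genes with annotated lengths. Of 3806 such genes 2519 gave the same depth. With these depths all 23543 rows above 0 could be written as whole reads (100.0% of rows, within 0.1). Where the annotated length did not serve, another length was searched for, so that share is no check of the depths. These recovered reads served only limma-voom, as an alternative. Counting error is larger for the members with the fewest reads, PSAG (862 to 1598 in a library) and PGRL1B (958 to 1831). Its part in the SE was not tested. The 2 libraries per group limit the precision, and p-values measure only the spread between these libraries.

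Groups were taken from the sample titles. Here log2(FPKM + 1) was fitted with limma 3.58.1 (lmFit, eBayes with trend) in R 4.3.3, with 4 group means over 8 libraries and 4 residual degrees of freedom. The 16831 genes that reached 1 FPKM in 2 or more libraries were tested in 5 two-sided comparisons, with Benjamini-Hochberg adjustment over all of them. Changes on this scale understate those of low genes. The members, the gene lists and the tests were chosen with earlier results of these data known. The lists are light-harvesting proteins, Rubisco small subunits and activase, non-photosynthetic isoforms, nuclear NDH subunits, assembly, repair and regulation, plastid-encoded subunits, senescence, and markers of guard cells, vasculature, epidermis, mesophyll, root and shoot meristem. Named with values per library are both genes of each paralog pair, the 3 largest called changes per direction and comparison, and the 5 smallest p of the interaction, and PETC was added after its values were seen. PSBR, PSAG and ATPC1 are given beyond that rule, as the range of the 2 libraries of each group. Other lists are named by at most 3 genes with the smallest p, with RCA, RBCS3B, SAG13 and the root markers added likewise. All 5 listed non-photosynthetic isoforms are named, which also goes beyond the rule. Alternatives were another pseudocount (0.1), no filter or a filter of 5 FPKM, median-of-ratios scaling, quantile scaling, organelle loci left out with equal FPKM sums, only the compared groups, a replicate block, library weights, no intensity trend, limma-voom, and each library left out. Symbols, promoters and transcripts are from RefSeq TAIR10.1, whereas the table gives no coordinates. Python 3.11.15, pandas 2.3.3 and Biopython 1.88 were used, and figures were drawn with matplotlib 3.10.9.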

Additional observations from a re-analysis of the deposited data

Results flagged for a closer look

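For 33 of the 36 members the heat change differed between the genotypes in the limma test of the interaction (10.3% of all genes were called positive). The values are log2 heat change in the mutant minus log2 heat change in the wild type. In photosystem I they were PSAD1 0.36, PSAD2 0.37, PSAE1 0.44, PSAE2 0.34, PSAF 0.41, PSAH1 0.36, PSAH2 0.44, PSAK 0.61, PSAL 0.36, PSAN 0.71 and PSAO 0.54. On the oxygen-evolving side of photosystem II they were PSBO1 0.51, PSBO2 0.43, PSBP1 0.44, PSBQ1 0.34, PSBQ2 0.41 and PSBR 0.52, and for the other photosystem II genes PSBS 0.44, PSBW 0.50, PSBX 0.44, PSBY 0.36 and PSBTN 0.39. For the ATP synthase they were ATPC1 0.19, ATPD 0.38 and ATPG 0.35, for the Rieske protein and plastocyanin PETC 0.40, PETE1 0.29 and PETE2 0.49, for ferredoxin and its reductase FD2 0.31, FNR1 0.17 and FNR2 0.31, and for cyclic flow PGR5 0.46 and PGRL1A 0.52. In the 33 members the mutant value was the higher one. FD1, PSAG and PGRL1B were tested and not called. Groups of 2 libraries are too small for a check of single outlying libraries.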

How the results depend on the processing

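The direction of the members' median was the same under the alternatives run (19, and 18 for the interaction) in every comparison, and the counts were the same to within 1.5 times except as follows. Without a filter on low values 9 members rose in the mutant (776 of 23543 genes) and 12 were lower in mutant mock (1062 genes). Without an intensity trend these counts were 7 and 10 (733 and 971 of 16831 genes), and after heat 19 were higher in the mutant (1419 genes). With quantile scaling 10 rose and 2 fell in the mutant (1243 and 1348 of 16831 genes), and 14 were lower and 1 (FD2) higher in mutant mock (1548 and 1380 genes). FD2 was also that 1 with equal FPKM sums, with a replicate block and with limma-voom (2660, 2460 and 2987 of all genes were higher in these settings). With only the compared groups 11 were lower in mutant mock (1073 of 16831 genes). FD1 in the wild type was lost (0 higher) without a filter, with median-of-ratios scaling and without a trend. With equal FPKM sums FD1 was the 1 lower in the mutant after heat (3747 of 16723 genes). The medians with median-of-ratios scaling were 0.25 for heat in the mutant, -0.23 in mock, 0.25 after heat and 0.49 for the interaction. With quantile scaling they were -0.15 for heat in the wild type and then 0.0139, -0.11, 0.13 and 0.20, and with equal FPKM sums 0.12 for heat in the mutant, 0.17 after heat and 0.32 for the interaction. The median of all genes for the interaction was -0.10 as deposited, -0.01 with median-of-ratios, 0.0237 with quantile scaling and -0.17 with equal sums. Quantile scaling gives equal values to equal ranks, and the members ranked 2 to 2644 by level.

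With a library left out the counts ran from 24 to 30 lower and 0 to 1 higher for heat in the wild type (median -0.27 to -0.19), from 9 to 25 higher and 0 to 0 lower in the mutant (0.16 to 0.18), from 12 to 27 lower and 0 higher in mock (-0.22 to -0.11), from 20 to 31 higher after heat (0.20 to 0.24) and from 30 to 33 for the interaction (0.34 to 0.44). Values that turned with quantile scaling were, for heat in the mutant, PSBR -0.19, PSBQ2 -0.0908, FD2 -0.0866, PSBP1 -0.0558, PSAD1 -0.0482, PSBO1 -0.0384, PSAL -0.0375, PSAE2 -0.0289, ATPD -0.0245, ATPG -0.0125 and PGRL1B 0.0040, and for heat in the wild type PSBY 0.0191. In mock they were PSAD1 0.0629, PSBP1 0.0558, PSBTN 0.0445, FNR1 0.0358 and PSBO1 0.0192, after heat PSBR -0.11 and PSAL -0.0375, and in the interaction PSBP1 -0.0311, PSBR -0.0271, PSAL -0.0375 and PGRL1B 0.0721. With median-of-ratios scaling FNR1 turned to -0.0153 for heat in the wild type and PGRL1B to 0.0453 for heat in the mutant and 0.0955 in the interaction, while PSAH1 turned to 0.0511 and ATPC1 to 0.0414 for heat in the mutant and PSAE2 to -0.0294 in mock. With equal sums FD1 turned to -0.0482 in the interaction, and FD2 to -0.0120, ATPD to -0.0070 and PSBQ2 to -0.0014 for heat in the mutant. With a library left out PSAG ran from -0.24 to 0.0015 for heat in the wild type, from -0.0113 to 0.14 in the mutant and from -0.11 to 0.0231 in mock, and PGRL1B from -0.0832 to 0.0262 and from -0.0882 to 0.0251 for heat in the wild type and the mutant and from -0.0597 to 0.0536 in the interaction. FNR1 ran from -0.0301 to 0.0439 for heat in the wild type, ATPC1 from -0.0802 to 0.0056 and ATPD from -0.0204 to 0.11 for heat in the mutant, and FD1 from -0.0220 to 0.0787 in the interaction. The cause of these changes was not tested. Same-numbered libraries of different groups had deviations correlated at -0.0277 to 0.19, not all above 0.1, so the numbers were not taken as pairs. With a replicate block 29 fell in the wild type (2946 of 16831 genes) and 22 rose in the mutant (1157). In that fit 26 were lower in mock (1418), 32 were higher after heat (2008) and 33 differed in the interaction (1818 genes were positive). With 2 libraries a group no single library can be shown to be at fault, and members near the threshold are the least certain.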
